A study of Homo sapiens with 10 samples.

Results

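The mRNAs of the cytosolic translation initiation factors (EIF genes) and elongation factors (EEF genes) were compared in VCaP cells, an established human prostate cancer cell line, after knockdown of the chromatin remodelling ATPases *SMARCA4* or *SMARCA1*. Members were chosen by symbol: EIF followed by a digit from 1 to 6, or EEF followed by 1 or 2, with pseudogenes, the eIF2 kinases, *EIF1AY*, the eIF4E-binding proteins and the *EEF1AKMT* methyltransferases left out. Of 59386 genes in the count files, 211 matched these symbols, 153 were excluded and 58 remained. RNA was sequenced 72 h after transfection, in 2 libraries of each of 5 conditions, 10 libraries in all. The conditions were an untargeted control, siRNA A or siRNA B against *SMARCA4*, and siRNA A or siRNA C against *SMARCA1*, each targeting siRNA at 30 pmol. What the control cells were transfected with is not named in the sources used here, and all conditions share the same cell line and harvest time. The study asked about these remodellers because they bind a long non-coding RNA linked to MYC signalling.

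As background, translation starts when eIF2 carries the initiator tRNA to the small ribosomal subunit, eIF3 holds the initiation complex together, and the eIF4 proteins bring the capped mRNA. eIF1 and eIF1A set the fidelity of scanning for the start codon, eIF5 and eIF5B drive GTP hydrolysis and subunit joining, and eIF2B recharges eIF2 with GTP. In elongation, eEF1A delivers each aminoacyl-tRNA, the eEF1B subunits recharge eEF1A, and eEF2 moves the ribosome along the mRNA. Many of these mRNAs, like those of ribosomal proteins, begin with a C followed by a run of pyrimidines, the 5′ terminal oligopyrimidine tract, and are translated under the control of mTOR. Several translation factors are also classical MYC target genes.

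Libraries held between 23898545 and 34667965 counts, and levels are given as CPM, which scales each count to library size, here with TMM factors. *SMARCA4* lay at 242 and 268 CPM in the controls and at 13.3 to 25.2 CPM in its own knockdown. *SMARCA1* lay at 31.5 and 32.3 CPM in the controls, at 1.75 to 3.4 CPM in its own knockdown and at 57.4 to 83.8 CPM in *SMARCA4* knockdown. All 11 prostate and VCaP markers examined were detected in each library, at 56.4 CPM or more, but some moved with the knockdowns. KRT8 lay at 542 and 538 CPM in the controls and at 1393 to 2466 CPM in the 8 knockdown libraries, and FOLH1 at 254 and 249 CPM against 64.5 to 209 CPM. Among markers of other cells, *PTPRC* did not exceed 0.0309 CPM and *PECAM1* did not exceed 0.434 CPM. *COL1A1* lay at 4.14 and 7.13 CPM in the controls, 5.88 to 14.1 CPM in *SMARCA4* knockdown and 8.04 to 18.5 CPM in *SMARCA1* knockdown, and *ALB* at 138 and 132 CPM, 85.8 to 139.6 CPM and 44.7 to 59.3 CPM. The summed level of 15 interferon response genes was 253 and 259 CPM in the controls, 13667 to 35962 CPM in *SMARCA4* knockdown and 20099 to 37907 CPM in *SMARCA1* knockdown. *MYC* lay at 318 and 328 CPM in the controls, at 25.8 to 102 CPM in *SMARCA4* knockdown and at 164 to 188 CPM in *SMARCA1* knockdown. The interferon and *MYC* signals thus moved with every comparison against control below, and *MYC* also with the direct comparison of the knockdowns. Neither the part of these signals in those results nor that of the markers was tested. In bulk RNA, a change in the number of cells and a change in mRNA per cell cannot be told apart, and CPM shows shares of the mRNA pool rather than amounts per cell.

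More translation factor mRNAs were lower than higher in each knockdown, although 30 of 55 passed no test after loss of *SMARCA1*. Of the 58 members 55 could be tested, with edgeR and an adjusted p below 0.05 as the threshold. In *SMARCA4* knockdown 31 were lower than control, where 22.3% of all 16899 genes tested were lower, and 2 were higher, where 22.8% of all genes were higher. In *SMARCA1* knockdown 19 were lower, against 23.0% of all genes, and 6 were higher, against 23.8% of all genes. The median log2 fold change of the members was -0.38 in *SMARCA4* knockdown and -0.13 in *SMARCA1* knockdown, with medians of all genes at 0.00 and -0.00. Tested directly against each other, 23 members were lower in *SMARCA4* than in *SMARCA1* knockdown, where 19.1% of all genes were lower, and 2 were higher (*EIF4A2* and *EIF3H*), where 16.3% were higher. The 3 members without a test were *EIF4E1B*, which did not exceed 0.247 CPM, *EIF2S3B*, which did not exceed 0.149 CPM, and *EEF1G*, which had 0 counts in all 10 libraries. Nearly all exon bases of *EEF1G* (99.7%) also belong to the readthrough gene *RP11-864I4.1* on the same strand, so its 0 says nothing on the level of this abundant eEF1B subunit.

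**Figure D1:**
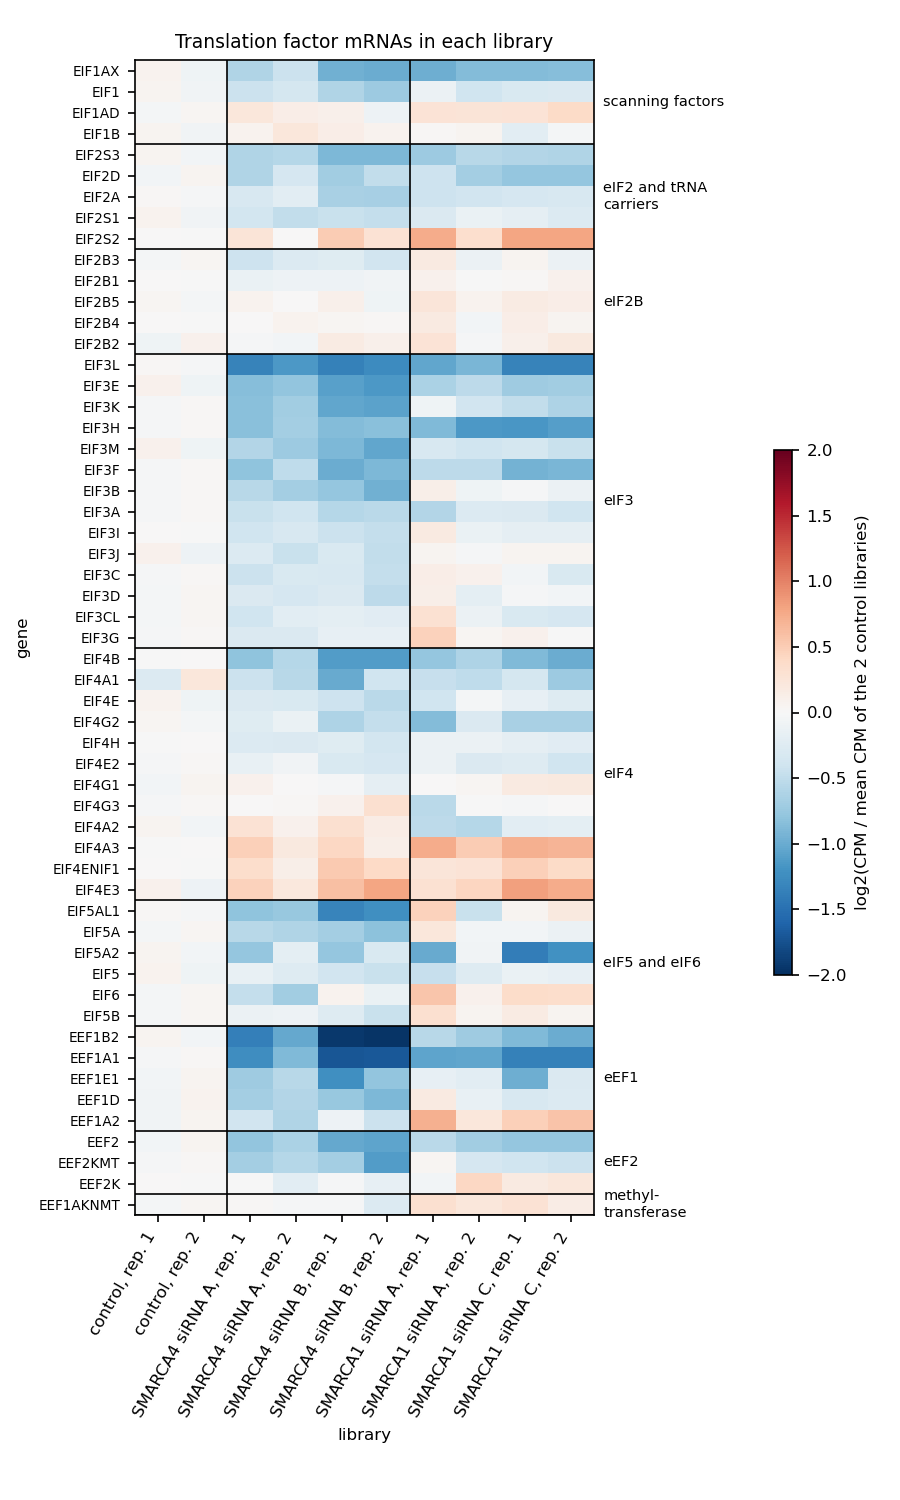
Colour gives log2 of the CPM of each tested member over its mean in the 2 control libraries, for 10 libraries (columns) and 55 genes (rows, grouped by role). Blue, lower than control, fills the *EEF1A1*, *EEF1B2* and EEF2 rows in all 8 knockdown libraries and the eIF3 rows in the 4 *SMARCA4* libraries, whereas the eIF2B rows stay near white and *EEF1A2*, *EIF2S2* and *EIF4A3* are red in *SMARCA1* knockdown.

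The fall was also seen in the pooled counts. Together the 58 members took 2.897% and 2.996% of all counts in the controls (95% exact Clopper-Pearson interval 2.890 to 2.903% for the first, which covers counting error only). Their share was 1.759% and 2.011% with *SMARCA4* siRNA A, 1.515% and 1.519% with *SMARCA4* siRNA B, 2.039% and 1.983% with *SMARCA1* siRNA A, and 1.764% and 1.749% with *SMARCA1* siRNA C. Each knockdown library lay below both controls. One gene, *EEF1A1*, made up 1.283% and 1.352% of all control counts. Without it the members took 1.613% and 1.644% in the controls, 1.102% to 1.284% in *SMARCA4* knockdown and 1.258% to 1.395% in *SMARCA1* knockdown. Each knockdown library thus lay below both controls without it too, while the knockdowns overlapped with each other.

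**Figure D2:**
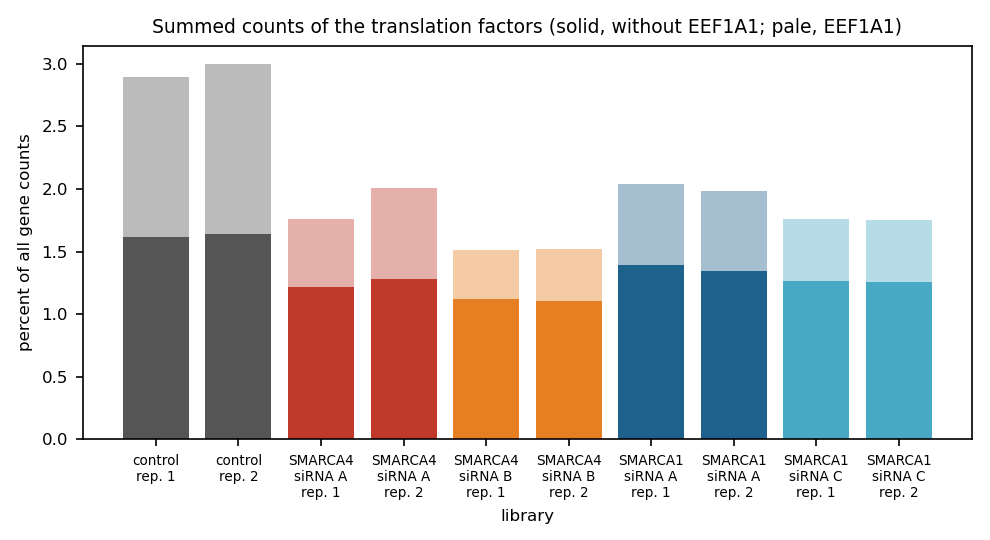
Bars give the summed counts of the 58 members as percent of all gene counts in each of the 10 libraries, with *EEF1A1* as the pale upper part and the other 57 members as the solid lower part. Both controls stand near 3% and all 8 knockdown libraries at 2.039% or less, and the solid parts are also lower in each knockdown library than in the controls.

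Levels between genes were compared per length, as TPM, using the union of annotated exons that the files give as gene length, which understates genes with many rarely used exons. On this scale 9 members reached 500 TPM or more in the controls. *EEF1A1* stood highest at a control mean of 5696 TPM, followed by EEF2 at 3051 TPM, the scaffold *EIF4G2* at 1140 TPM, and then *EIF4B* (797 TPM), *EEF1A2* (758 TPM), *EIF5A* (726 TPM), *EIF4G1* (724 TPM), EIF1 (667 TPM) and *EEF1B2* (636 TPM). From *EIF4B* to *EEF1B2*, neighbours in this order overlapped between the 2 controls except *EIF4G1* (696 and 751 TPM) and EIF1 (694 and 639.9 TPM).

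In each knockdown the member with the largest fall was an elongation factor. *EEF1A1*, the main tRNA-delivering GTPase (chr6, reverse strand), was at 12825 and 13338 CPM in the controls, at 5524 and 7126 CPM with *SMARCA4* siRNA A, at 3977 and 4056 CPM with *SMARCA4* siRNA B, at 6291 and 6366 CPM with *SMARCA1* siRNA A, and at 5153 and 5105 CPM with *SMARCA1* siRNA C. All 8 knockdown libraries were far below both controls, lowest with *SMARCA4* siRNA B. With *SMARCA4* depleted, 39.5% of the control mean was left (log2 fold change -1.38 ± 0.10, where ± is the standard error, adjusted p = 1.3e-05). With *SMARCA1* depleted, 43.8% was left (-1.20 ± 0.11, adjusted p = 4.3e-05). The direct difference between the knockdowns was -0.18 ± 0.09 (adjusted p = 0.15).

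*EEF1B2*, a subunit of the exchange factor that recharges eEF1A, fell furthest of all members in *SMARCA4* knockdown. It lay at 289 and 267 CPM in the controls, 108 and 137 CPM with *SMARCA4* siRNA A, 72.9 and 71.2 CPM with *SMARCA4* siRNA B, 189 and 169 CPM with *SMARCA1* siRNA A, and 150.5 and 139 CPM with *SMARCA1* siRNA C. No *SMARCA4* library reached the lowest *SMARCA1* library, and no *SMARCA1* library reached a control. The log2 fold changes were -1.56 ± 0.11 (adjusted p = 8.2e-06) and -0.79 ± 0.11 (adjusted p = 0.0004), and the direct difference of -0.77 ± 0.09 passed the test (adjusted p = 0.0003). *EEF1D*, another exchange subunit, was at 205 and 224 CPM in the controls, 134, 143, 127 and 115 CPM in *SMARCA4* knockdown, and 243, 193, 172 and 178 CPM in *SMARCA1* knockdown. Only the *SMARCA4* libraries lay clear of the controls. *EEF1D* fell by 0.72 ± 0.11 on the log2 scale when *SMARCA4* was depleted (adjusted p = 0.00052), its value of -0.13 ± 0.11 did not pass when *SMARCA1* was (adjusted p = 0.35), and there was a direct difference of -0.59 ± 0.09 (adjusted p = 0.0011). *EEF1E1*, which belongs to the aminoacyl-tRNA synthetase complex, was scarce, with 2.8 and 3.01 CPM in the controls, 1.78, 1.98, 1.24 and 1.68 CPM in *SMARCA4* knockdown, and 2.6, 2.52, 1.47 and 2.37 CPM in *SMARCA1* knockdown. All 8 knockdown libraries were below the controls. Its direct difference between the knockdowns, -0.42 ± 0.19, did not pass the test (adjusted p = 0.11). The log2 fold change against control passed with *SMARCA4* depleted (-0.81 ± 0.22, adjusted p = 0.014) and not with *SMARCA1* depleted (-0.39 ± 0.22, adjusted p = 0.18). The call was lost with *SMARCA4* siRNA A alone (-0.63, adjusted p = 0.092), and also without control replicate 1 (adjusted p = 0.077), control replicate 2 (0.11) or *SMARCA4* siRNA B replicate 1 (0.056), and 18.8% of its exon bases are shared with the readthrough gene *EEF1E1-BLOC1S5*.

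*EEF1A2*, the paralogue of *EEF1A1* that is normally found in muscle and neurons, moved apart from it. It was at 799 and 870.3 CPM in the controls, 643 and 552 CPM with *SMARCA4* siRNA A, 782 and 623 CPM with *SMARCA4* siRNA B, 1369 and 975 CPM with *SMARCA1* siRNA A, and 1163 and 1233 CPM with *SMARCA1* siRNA C. The *SMARCA1* libraries were all above the controls and the *SMARCA4* libraries all below them. With *SMARCA1* depleted it rose by 0.51 ± 0.15 on the log2 scale (adjusted p = 0.02), a call lost without control replicate 1 (adjusted p = 0.13), control replicate 2 (0.067) or *SMARCA1* siRNA C replicate 2 (0.054). In *SMARCA4* knockdown its change of -0.37 ± 0.15 did not pass the test (adjusted p = 0.065), and passed it when replicate 1 or 2 of *SMARCA1* siRNA A was left out of the shared fit (adjusted p = 0.014 and 0.02), without the other target's libraries (0.025) or without the filter on low counts (0.007). The direct difference was -0.87 ± 0.12 (adjusted p = 0.00065) and kept its call with each library left out. Per length, *EEF1A2* made up 11.5% and 12% of the sum of both paralogues in the controls, 19.5%, 13.9%, 29.1% and 24.3% in *SMARCA4* knockdown, and 31.2%, 24.2%, 32% and 33.5% in *SMARCA1* knockdown. Each knockdown library had a larger *EEF1A2* share than the controls, and *EEF1A1* remained the larger part throughout.

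EEF2, the translocase, was at 2699 and 2901 CPM in the controls, 1612, 1806, 1378 and 1342 CPM in *SMARCA4* knockdown, and 1932, 1732, 1633 and 1645 CPM in *SMARCA1* knockdown. No knockdown library came near the controls. It fell by 0.88 ± 0.09 on the log2 scale in *SMARCA4* knockdown (adjusted p = 6.7e-05) and by 0.69 ± 0.09 in *SMARCA1* knockdown (adjusted p = 0.00032), with a direct difference of -0.18 ± 0.08 (adjusted p = 0.088). *EEF2KMT*, a methyltransferase that modifies eEF2, was at 11.2 and 11.6 CPM in the controls, 7.12, 7.7, 7.11 and 5.26 CPM in *SMARCA4* knockdown, and 11.7, 9.06, 8.61 and 8.45 CPM in *SMARCA1* knockdown. It fell in *SMARCA4* knockdown by 0.75 ± 0.15 (adjusted p = 0.003), and the change of -0.28 ± 0.15 in *SMARCA1* knockdown did not pass (adjusted p = 0.17). *EEF2K*, the kinase that inactivates eEF2, overlapped with the controls in both knockdowns and passed no test. *EEF1AKNMT*, a methyltransferase of eEF1A that the symbol rule retains, differed between the knockdowns (-0.32 ± 0.08, adjusted p = 0.016) and from control in neither.

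**Figure D3:**
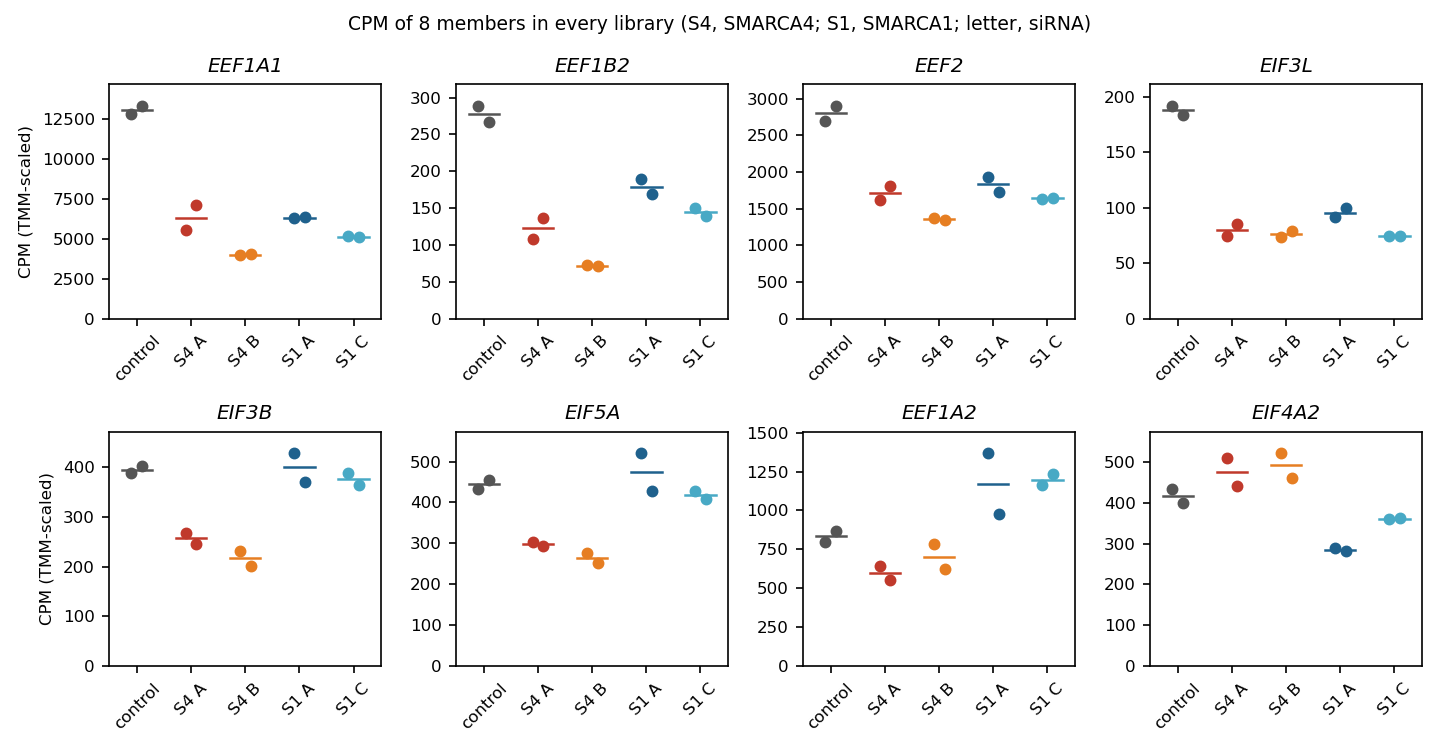
Points give the CPM of 8 members in each library and short lines the mean of the 2 libraries of a condition, on linear axes that start at 0. *EEF1A1*, *EEF1B2*, EEF2 and *EIF3L* are low in all 4 knockdown conditions, *EIF3B* and *EIF5A* are low with both *SMARCA4* siRNAs alone, *EEF1A2* is above the controls with both *SMARCA1* siRNAs, and *EIF4A2* is below the controls with both *SMARCA1* siRNAs and above them with both *SMARCA4* siRNAs.

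RefSeq promoter sequences (GRCh38.p14, 250 bases before and 50 from the annotated start) were found for 47 of the 58 members, 44 of them tested. The start sites are shown because members that share one feature there, a C as first base with at least 4 bases of C or T after it, had lower values than the others. This search was added after the values were seen and received no test. Upper-case letters mark that run of pyrimidines and, further upstream, the palindromic E-box CACGTG, the motif bound by MYC with its partner MAX. The windows are examples chosen with the values known, and the counts over all members follow them. The first 7 below hold the pyrimidine start. The last 3 do not, and their members passed no test in *SMARCA1* knockdown, although *EIF4A1* was barely read. Not shown are *EIF1AX*, *EIF5A2*, *EIF4G2* and *EIF4E2*, which lack the run and were lower in *SMARCA1* knockdown. *EIF5A* has several annotated starts, of which the first is shown.
EEF1A1 (chr6:73521013-73521072, reverse strand): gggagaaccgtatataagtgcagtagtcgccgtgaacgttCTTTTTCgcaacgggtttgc
EEF1B2 (chr2:206159855-206159914, forward strand): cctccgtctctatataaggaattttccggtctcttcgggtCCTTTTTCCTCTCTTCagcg
EEF2 (chr19:3985444-3985503, reverse strand): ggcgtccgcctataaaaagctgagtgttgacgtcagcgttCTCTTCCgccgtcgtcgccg
EIF3K (chr19:38619068-38619207, forward strand): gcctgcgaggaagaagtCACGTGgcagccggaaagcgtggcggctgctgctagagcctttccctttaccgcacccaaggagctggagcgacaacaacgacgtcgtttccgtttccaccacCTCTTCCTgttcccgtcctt
EIF4B (chr12:53006416-53006475, forward strand): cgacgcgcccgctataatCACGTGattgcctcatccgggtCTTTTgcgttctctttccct
EIF3F (chr11:7987257-7987356, forward strand): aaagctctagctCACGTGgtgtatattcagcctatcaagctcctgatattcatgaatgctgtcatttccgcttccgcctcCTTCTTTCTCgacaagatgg
EIF3M (chr11:32583791-32583850, forward strand): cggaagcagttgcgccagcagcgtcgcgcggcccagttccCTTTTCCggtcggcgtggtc
EIF3B (chr7:2354787-2354846, forward strand): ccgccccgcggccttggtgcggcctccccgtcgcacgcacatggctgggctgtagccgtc
EIF5A (chr17:7306959-7307018, forward strand): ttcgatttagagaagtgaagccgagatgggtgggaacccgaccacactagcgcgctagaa
EIF4A1 (chr17:7572785-7572844, forward strand): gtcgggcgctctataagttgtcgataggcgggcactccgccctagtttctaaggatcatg

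Each window ends 20 bases into the transcript. The run was 7 bases long in *EEF1A1*, EEF2 and *EIF3M*, 16 in *EEF1B2*, 8 in *EIF3K*, 5 in *EIF4B* and 10 in *EIF3F*. Where a gene has several annotated starts, the gene was counted if any of them held the run. This was so for 12 of 44 tested members (27.3%), for 7.13% of the 11677 tested genes with a promoter sequence, and for 48 of 68 cytosolic ribosomal protein genes (70.6%). Of the 12 members, 11 were lower in *SMARCA4* knockdown (median log2 fold change -0.80) and 11 were lower in *SMARCA1* knockdown (median -0.64). The exceptions were *EIF4A2* in *SMARCA4* knockdown and *EIF3D* in *SMARCA1* knockdown, neither of which passed the test there. Among the 32 members without the run, 14 were lower and 2 higher in *SMARCA4* knockdown (median -0.31), and 4 were lower and 4 higher in *SMARCA1* knockdown (median -0.01). The direct difference between the knockdowns had a median of -0.15 in members with the run and -0.16 in those without it. Among the ribosomal protein genes, the medians in *SMARCA4* knockdown were -1.21 with the run and -1.11 without it. In *SMARCA1* knockdown they were -0.75 and -0.74, so the run hardly separated these genes. Outside the members and ribosomal proteins, 773 tested genes held the run, and their medians were -0.03 and -0.02.

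The E-box CACGTG, which reads the same on both strands, was present in the promoter of 11 of 44 tested members (25.0%) and of 12.1% of the tested genes with a promoter, and in 7.26% of all 35116 RefSeq promoter sequences. It began 103 bases before the start in *EIF3K*, 22 in *EIF4B* and 68 in *EIF3F*. Members with the E-box had a median log2 fold change of -0.33 in *SMARCA4* knockdown and -0.16 in *SMARCA1* knockdown, and those without it -0.38 and -0.13. A match of letters is a description of the window and not evidence of binding.

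**Figure D4:**
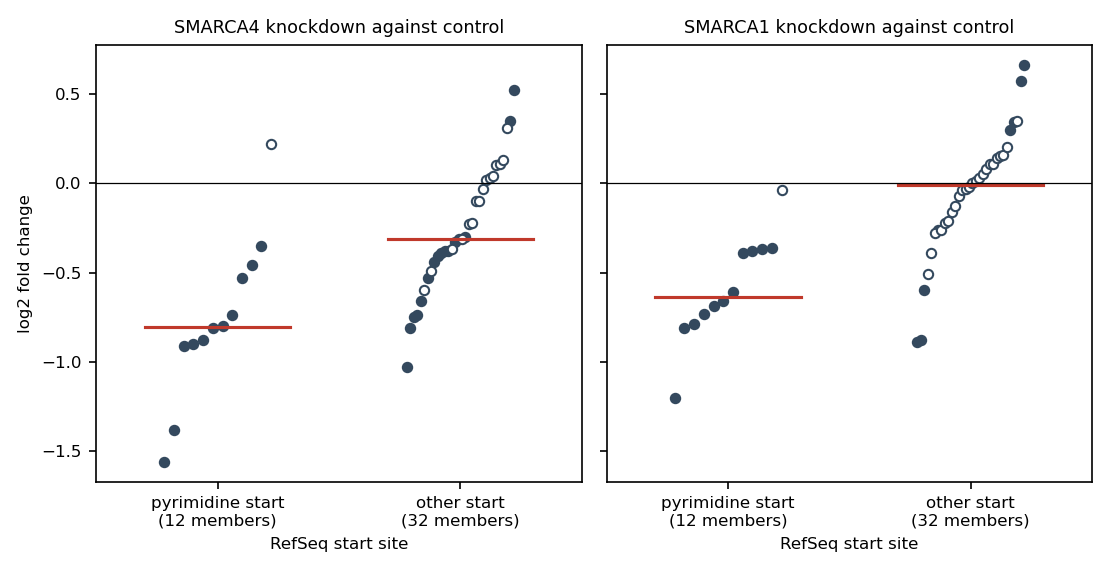
Points give the log2 fold change of each tested member with a RefSeq promoter, in *SMARCA4* knockdown (left) and *SMARCA1* knockdown (right), for 12 members whose annotated start is a C followed by at least 4 pyrimidines and 32 members with another start. Filled points passed the test and red lines are medians, at -0.80 against -0.31 on the left and at -0.64 against -0.01 on the right.

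All 14 genes of eIF3, the scaffold of the initiation complex, had a log2 fold change below 0 in *SMARCA4* knockdown, 12 of them past the test. In *SMARCA1* knockdown 7 of the 14 were lower and none higher. The medians were -0.61 and -0.24. *EIF3L* fell furthest, from 192 and 184 CPM in the controls to 74.5, 85.2, 73.3 and 78.8 CPM in *SMARCA4* knockdown and 91.3, 99.6, 74.3 and 74.6 CPM in *SMARCA1* knockdown. No knockdown library reached a control, although the knockdowns overlapped with each other. Its log2 fold changes were -1.27 ± 0.09 (adjusted p = 9.2e-06) and -1.16 ± 0.09 (adjusted p = 2.4e-05). Of its exon bases, 41.1% are shared with *RP5-1014D13.2*, so part of its reads may not have been counted.

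Other eIF3 subunits fell in both knockdowns. *EIF3E* was at 424 and 378 CPM in the controls, 222, 233, 189 and 181 CPM in *SMARCA4* knockdown, and 259.9, 278, 245 and 248 CPM in *SMARCA1* knockdown (log2 fold changes -0.97 ± 0.09 and -0.64 ± 0.09). *EIF3F* was at 145 and 151 CPM in the controls, 85, 104, 74.4 and 79 CPM in *SMARCA4* knockdown, and 103, 103, 77 and 78.4 CPM in *SMARCA1* knockdown (-0.80 ± 0.10 and -0.73 ± 0.10). In neither gene did a knockdown library reach a control, and all 4 changes passed the test with each library left out. The direct test also called *EIF3E* lower in *SMARCA4* than in *SMARCA1* knockdown, and that call was kept likewise. *EIF3H* was at 269 and 279 CPM in the controls, 154, 171, 150.3 and 153 CPM in *SMARCA4* knockdown, and 148, 123, 122 and 127 CPM in *SMARCA1* knockdown (-0.81 ± 0.10 and -1.08 ± 0.10). It was the one eIF3 gene called higher in *SMARCA4* than in *SMARCA1* knockdown (direct difference 0.27 ± 0.08, adjusted p = 0.027), a call lost in the fits without either library of *SMARCA4* siRNA B (adjusted p = 0.051 and 0.081), either library of *SMARCA1* siRNA C (0.11 and 0.075) or *SMARCA4* siRNA A replicate 2 (0.08).

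Further eIF3 subunits were lower after loss of *SMARCA4* than of *SMARCA1*. *EIF3B*, a core scaffold subunit, was at 388 and 402 CPM in the controls, 268, 246, 231 and 202 CPM in *SMARCA4* knockdown, and 429, 371, 389 and 364 CPM in *SMARCA1* knockdown. The *SMARCA4* libraries stood apart from all others, and the *SMARCA1* libraries overlapped with the controls. It fell by 0.74 ± 0.10 on the log2 scale with *SMARCA4* depleted (adjusted p = 0.00027), its value was -0.02 ± 0.10 with *SMARCA1* depleted (adjusted p = 0.86), and the direct difference was -0.72 ± 0.08 (adjusted p = 0.00027). *EIF3K* was at 162 and 166 CPM in the controls, 91.5, 101, 79.7 and 78.2 CPM in *SMARCA4* knockdown, and 154, 126, 116 and 107 CPM in *SMARCA1* knockdown (direct difference -0.52 ± 0.09, adjusted p = 0.0015). *EIF3M* was at 102 and 90.9 CPM in the controls, 64.5, 58.1, 52 and 46.8 CPM in *SMARCA4* knockdown, and 77.1, 72.8, 76 and 70.5 CPM in *SMARCA1* knockdown (direct difference -0.43 ± 0.08, adjusted p = 0.0032). Both also fell in *SMARCA1* knockdown, *EIF3K* by 0.39 ± 0.10 (adjusted p = 0.011) and *EIF3M* by 0.38 ± 0.10 (adjusted p = 0.01) on the log2 scale. Without control replicate 1 these calls were lost (adjusted p = 0.083 and 0.15), and that of *EIF3K* also without control replicate 2 (0.093). The other called subunits, *EIF3A*, *EIF3I*, *EIF3J*, *EIF3C* and *EIF3D*, fell by smaller amounts in *SMARCA4* knockdown, between 0.35 and 0.49 on the log2 scale, and of these *EIF3A* alone also passed in *SMARCA1* knockdown. *EIF3G* and *EIF3CL* passed neither test against control. *EIF3C* and *EIF3CL* are near-identical copies, so the split of reads between them is uncertain.

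Among the 12 tested eIF4 members, which bind the cap or unwind the mRNA, changes went both ways. *EIF4B*, the partner of the eIF4A helicase, fell most. It was at 1091 and 1102 CPM in the controls, 628, 736, 504 and 504 CPM in *SMARCA4* knockdown, and 642, 718, 595 and 552 CPM in *SMARCA1* knockdown. No knockdown library came near a control, and the log2 fold changes were -0.90 ± 0.10 (adjusted p = 7.4e-05) and -0.81 ± 0.10 (adjusted p = 0.00018). *EIF4E*, the cap-binding protein, was at 128 and 115 CPM in the controls, 99.1, 98.4, 90.8 and 83.5 CPM in *SMARCA4* knockdown, and 92, 118, 108 and 102 CPM in *SMARCA1* knockdown. Its fall of 0.39 ± 0.11 in *SMARCA4* knockdown passed the test (adjusted p = 0.017), but was lost without control replicate 1 (adjusted p = 0.21), control replicate 2 (0.056), *SMARCA4* siRNA A replicate 1 (0.056) or 2 (0.051), or *SMARCA4* siRNA B replicate 2 (0.07). *EIF4G1*, the scaffold that joins cap-binding protein and helicase, was at 1395 and 1496 CPM in the controls, 1539, 1452, 1420 and 1278 CPM in *SMARCA4* knockdown, and 1450, 1491, 1641 and 1653 CPM in *SMARCA1* knockdown. The groups overlapped, with log2 fold changes of -0.03 ± 0.09 (adjusted p = 0.84) and 0.11 ± 0.09 (adjusted p = 0.36).

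*EIF4A2*, an RNA helicase, separated the knockdowns. It was at 433 and 399 CPM in the controls, 510.5, 441, 522 and 461 CPM in *SMARCA4* knockdown, and 289.5, 281, 359.9 and 362 CPM in *SMARCA1* knockdown. All *SMARCA4* libraries were above the controls and all *SMARCA1* libraries below them. The fall of 0.37 ± 0.10 in *SMARCA1* knockdown passed the test (adjusted p = 0.011), but was lost with *SMARCA1* siRNA C alone (-0.20, adjusted p = 0.17), at a minimum fold change of 1.2 (adjusted p = 0.12) and without control replicate 1 (adjusted p = 0.14). The value of 0.22 ± 0.10 in *SMARCA4* knockdown did not pass (adjusted p = 0.11), and passed without *SMARCA4* siRNA A replicate 2 (0.034) or without replicate 1 or 2 of *SMARCA1* siRNA A (0.047 and 0.032). The direct difference was 0.59 ± 0.08 (adjusted p = 0.00061), with its call kept in each fit that left out a library. *EIF4A3*, the helicase of the exon junction complex, went the other way than *EIF4A2* in *SMARCA1* knockdown only. It was at 112 and 114 CPM in the controls, 158, 130.0, 151 and 123 CPM in *SMARCA4* knockdown, and 189, 161, 185 and 180.2 CPM in *SMARCA1* knockdown. It rose in *SMARCA1* knockdown by 0.66 ± 0.12 (adjusted p = 0.002), and the value of 0.31 ± 0.12 in *SMARCA4* knockdown did not pass (adjusted p = 0.06). *EIF4A1*, the third helicase, is read at only 1.8 and 2.56 CPM in the controls, 1.61, 1.48, 1.08 and 1.65 CPM in *SMARCA4* knockdown, and 1.59, 1.54, 1.7 and 1.32 CPM in *SMARCA1* knockdown, and passed no test. Of its exon bases 42.1% are shared with *RP11-186B7.4* and 28.2% with *SENP3-EIF4A1*, so part of its reads may not have been counted. This low level is therefore no reliable measure of its mRNA. As 52.6% of its exon bases belong to no other gene, sharing may not account for it in full, which was not tested.

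*EIF4G2*, a scaffold without the cap-binding site, was at 2272 and 2146 CPM in the controls, 1863, 2013, 1440 and 1587 CPM in *SMARCA4* knockdown, and 1211, 1811, 1402 and 1404 CPM in *SMARCA1* knockdown. All knockdown libraries were lower than the controls, but the pair with *SMARCA1* siRNA A was far apart. It fell in *SMARCA1* knockdown by 0.60 ± 0.14 (adjusted p = 0.006), lost without control replicate 1 (adjusted p = 0.071), and the value of -0.37 ± 0.14 in *SMARCA4* knockdown did not pass (adjusted p = 0.056). The scarce cap-binding paralogue *EIF4E3* was at 3.97 and 3.49 CPM in the controls, 5.13, 4.34, 5.69 and 6.42 CPM in *SMARCA4* knockdown, and 4.59, 5, 6.56 and 6.23 CPM in *SMARCA1* knockdown. It rose by 0.52 ± 0.15 (adjusted p = 0.018) and 0.57 ± 0.15 (adjusted p = 0.012), and both calls were lost without control replicate 2 (0.13 and 0.1) and with siRNA A of either target alone (0.34, adjusted p = 0.15, for *SMARCA4* and 0.36, adjusted p = 0.13, for *SMARCA1*). *EIF4ENIF1*, the transporter of eIF4E, also rose in both, by 0.35 ± 0.10 (adjusted p = 0.016) and 0.34 ± 0.10 (adjusted p = 0.018). *EIF4H* fell in *SMARCA4* knockdown (-0.30 ± 0.08, adjusted p = 0.015) and *EIF4E2* in *SMARCA1* knockdown (-0.26 ± 0.09, adjusted p = 0.042), and *EIF4G3* passed no test.

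The 3 subunits of eIF2 did not move together. *EIF2S3*, the GTP-binding subunit, was at 218 and 201 CPM in the controls, 138, 141, 112 and 112 CPM in *SMARCA4* knockdown, and 127, 142, 139.8 and 138 CPM in *SMARCA1* knockdown. Every knockdown library was lower than both controls, and it fell by 0.74 ± 0.09 (adjusted p = 0.00013) and 0.61 ± 0.09 (adjusted p = 0.00046) on the log2 scale. *EIF2S1*, the subunit that stress kinases phosphorylate, was at 185 and 167 CPM in the controls, 136, 125, 129.9 and 126 CPM in *SMARCA4* knockdown, and 144, 159.9, 156 and 145 CPM in *SMARCA1* knockdown. Its fall of 0.44 ± 0.09 in *SMARCA4* knockdown passed the test (adjusted p = 0.0036, 0.082 without control replicate 1), and the value of -0.22 ± 0.09 in *SMARCA1* knockdown did not (adjusted p = 0.084). That value of *EIF2S1* passed with upper-quartile or total-count scaling (adjusted p = 0.045 and 0.047). The direct test called *EIF2S1* lower in *SMARCA4* than in *SMARCA1* knockdown. This call was lost with total-count scaling (adjusted p = 0.055) and in several fits that left out a library. *EIF2S2*, the third subunit, was at 195 and 193 CPM in the controls, 233, 195, 275 and 237 CPM in *SMARCA4* knockdown, and 324, 245, 337 and 335 CPM in *SMARCA1* knockdown. All *SMARCA1* libraries lay above the controls, and it rose there by 0.67 ± 0.13 (adjusted p = 0.0026), while 0.27 ± 0.13 in *SMARCA4* knockdown did not pass (adjusted p = 0.12).

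Of the other carriers of initiator tRNA, *EIF2D* was at 43.6 and 47.4 CPM in the controls, 30.1, 36, 28 and 32.4 CPM in *SMARCA4* knockdown, and 34.1, 28.3, 26.5 and 26.6 CPM in *SMARCA1* knockdown. It fell by 0.53 ± 0.12 (adjusted p = 0.0051, 0.084 without control replicate 2) and 0.66 ± 0.12 (adjusted p = 0.0015). *EIF2A* fell in both by 0.46 ± 0.08 (adjusted p = 0.0015) and 0.36 ± 0.08 (adjusted p = 0.0055). The 5 subunits of the exchange factor eIF2B stayed near the controls. *EIF2B3* fell in *SMARCA4* knockdown (-0.33 ± 0.12, adjusted p = 0.047) and none passed in *SMARCA1* knockdown, with group medians of 0.02 and 0.08. *EIF2B4*, one of its regulatory subunits, illustrates the spread, at 61.9 and 61.3 CPM in the controls and 59.4 to 69.8 CPM in the knockdowns.

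Of the scanning factors, *EIF1AX* was at 252 and 226 CPM in the controls, 157, 177, 123 and 119.6 CPM in *SMARCA4* knockdown, and 121, 131, 131 and 132 CPM in *SMARCA1* knockdown. It fell by 0.75 ± 0.09 (adjusted p = 0.00017) and 0.89 ± 0.09 (adjusted p = 9.3e-05) on the log2 scale, and no knockdown library reached a control. EIF1, the gatekeeper of start codon choice, was at 575 and 527 CPM in the controls, 411, 434, 362 and 332 CPM in *SMARCA4* knockdown, and 509, 417, 446 and 451 CPM in *SMARCA1* knockdown. Its fall of 0.53 ± 0.10 passed the test in *SMARCA4* knockdown (adjusted p = 0.0023, 0.056 without control replicate 1), and the value of -0.28 ± 0.10 in *SMARCA1* knockdown did not (adjusted p = 0.051). The direct test called EIF1 lower in *SMARCA4* than in *SMARCA1* knockdown. This call was lost with total-count scaling (adjusted p = 0.064) and in several fits that left out a library. *EIF1AD*, which carries an eIF1A-like domain, rose in *SMARCA1* knockdown (0.30 ± 0.10, adjusted p = 0.028), and *EIF1B* passed no test.

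*EIF5A*, the hypusine-bearing factor that helps ribosomes past stalling sequences, fell after loss of *SMARCA4* and not detectably after loss of *SMARCA1*. It was at 433 and 456 CPM in the controls, 302, 293, 277 and 253 CPM in *SMARCA4* knockdown, and 521, 428, 429 and 408 CPM in *SMARCA1* knockdown. Its changes on the log2 scale were -0.66 ± 0.10 (adjusted p = 0.00054) and 0.00 ± 0.10 (adjusted p = 0.99), and the direct difference was -0.67 ± 0.08 (adjusted p = 0.00038). *EIF5AL1*, an intronless copy whose reads cannot be separated with certainty from those of *EIF5A*, lay at 2.59 and 2.53 CPM in the controls, 1.47, 1.51, 1.02 and 1.09 CPM in *SMARCA4* knockdown, and 3.54, 1.87, 2.66 and 2.94 CPM in *SMARCA1* knockdown (direct difference -1.14 ± 0.21, adjusted p = 0.0026). The paralogue *EIF5A2* was at 6.02 and 5.54 CPM in the controls, 3.39, 5.03, 3.37 and 4.67 CPM in *SMARCA4* knockdown, and 2.86, 5.52, 2.21 and 2.49 CPM in *SMARCA1* knockdown. It fell in *SMARCA1* knockdown by 0.88 ± 0.26 (adjusted p = 0.02), a call lost without control replicate 1 (adjusted p = 0.13), control replicate 2 (0.082) or *SMARCA1* siRNA C replicate 1 (0.056). *SMARCA1* siRNA A alone gave -0.47 (adjusted p = 0.26) and siRNA C alone -1.30 (adjusted p = 0.0081). EIF6, which keeps the large ribosomal subunit from joining early, was at 52.6 and 55.6 CPM in the controls, 38.8, 33.3, 56.7 and 49.3 CPM in *SMARCA4* knockdown, and 79.5, 57.7, 69.6 and 68.8 CPM in *SMARCA1* knockdown. Every *SMARCA1* library was above every *SMARCA4* library, with a direct difference of -0.66 ± 0.11 (adjusted p = 0.0017), although neither knockdown passed against control (adjusted p = 0.085 and 0.059). EIF5 fell in *SMARCA4* knockdown (-0.31 ± 0.10, adjusted p = 0.024), and *EIF5B* was lower with *SMARCA4* depleted than with *SMARCA1* depleted (-0.38 ± 0.09, adjusted p = 0.0078).

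Members named outside the rule for full description held their calls less well when a library was left out. The fit named for each comparison below lost the most of them, but many were lost in further fits. In *SMARCA4* knockdown the lost calls failed in 2 (*EIF3I*) to 8 (*EIF2B3*) of 10 fits. The range was 1 (*EIF2A*) to 9 (*EIF4E2*) in *SMARCA1* knockdown and 1 (*EIF3G*) to 6 (*EIF2B3*) between the knockdowns. In *SMARCA4* knockdown, 8 of 10 such calls (*EIF3I*, *EIF2B3*, *EIF4H*, EIF5, *EIF3J*, *EIF3C*, *EIF4ENIF1* and *EIF3D*) were lost without control replicate 1, with adjusted p from 0.069 to 0.29, and *EIF2A* and *EIF3A* kept theirs with each library left out. In *SMARCA1* knockdown all 5 (*EIF4E2*, *EIF2A*, *EIF3A*, *EIF1AD* and *EIF4ENIF1*) were lost without that same control, with adjusted p from 0.078 to 0.18. Between the knockdowns 6 of 8 (*EIF3I*, *EIF2B3*, *EEF1AKNMT*, *EIF3C*, *EIF3G* and *EIF3D*) were lost without *SMARCA1* siRNA C replicate 1, with adjusted p from 0.054 to 0.12, while *EIF5B* and *EIF3J* kept theirs.

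**Figure D5:**
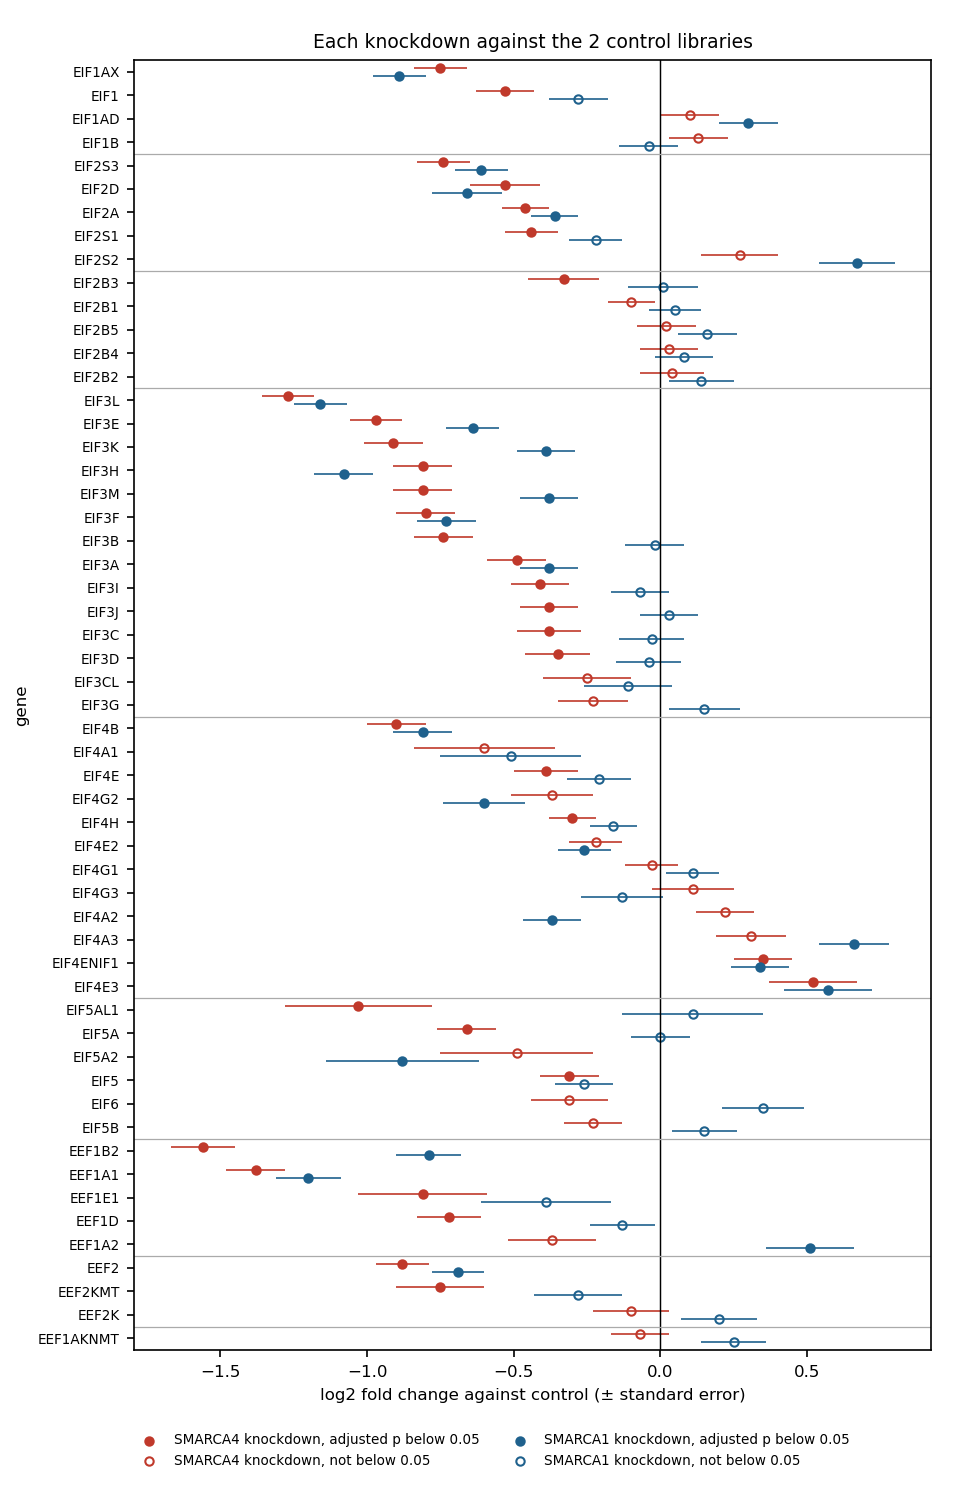
Points give the log2 fold change of the 55 tested members against control, with bars of ± 1 standard error, in *SMARCA4* knockdown (red) and *SMARCA1* knockdown (blue), and filled points passed the test. Both knockdowns use the same 2 controls. Red and blue points lie close for *EEF1A1*, *EIF3L*, *EIF4B* and *EIF3F* and apart for *EIF3B*, *EIF5A*, *EEF1A2* and *EIF4A2*.

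With the siRNAs taken singly against control, 24 members were lower with *SMARCA4* siRNA A, where 15.8% of all genes were lower, and 33 with *SMARCA4* siRNA B, where 21.9% were. With *SMARCA1* siRNA A 17 members were lower, against 16.3% of all genes, and with *SMARCA1* siRNA C 18, against 21.5%. Besides the genes described above, the calls of *EIF4E* (-0.30, adjusted p = 0.11) and *EIF5AL1* (-0.78, adjusted p = 0.064) in *SMARCA4* knockdown were not reached with *SMARCA4* siRNA A alone. Nor were those of *EIF2A* (-0.26, adjusted p = 0.065), *EIF2B3* (-0.34, adjusted p = 0.085), *EIF3C*, *EIF3D*, EIF5 and *EIF4ENIF1*. *EIF2B3* also did not pass with *SMARCA4* siRNA B alone (-0.31, adjusted p = 0.096). The calls of *EIF3K* (-0.23, adjusted p = 0.16), *EIF4E2* (-0.20, adjusted p = 0.18), *EIF1AD* and *EIF4ENIF1* in *SMARCA1* knockdown were not reached with *SMARCA1* siRNA A alone. Compared with each other, the *SMARCA4* siRNAs differed in 4 members, where 6.20% of all genes differed. *EEF1B2* (-0.77 ± 0.13, adjusted p = 0.015), *EEF1A1* (-0.66 ± 0.13, adjusted p = 0.02), *EIF1AX* (-0.46 ± 0.11, adjusted p = 0.038) and *EIF2A* (-0.40 ± 0.10, adjusted p = 0.041) were lower with siRNA B. Each of these calls was lost in at least 3 of the 10 fits that left out a library, and all 4 were lost without *SMARCA4* siRNA A replicate 2 or either library of *SMARCA4* siRNA B, with adjusted p from 0.087 to 0.27 in those fits. *MYC* lay at 87.4 and 102 CPM under siRNA A and at 42.2 and 25.8 CPM under siRNA B, and its part in these differences was not tested. Between the *SMARCA1* siRNAs 0 members were called by edgeR and 0 by DESeq2, where edgeR called 0.0118% of all genes, and 10 members had an unadjusted p below 0.05.

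Other genes of the translation pathway were counted from lists. Of all genes tested, 22.3% were lower and 22.8% higher in *SMARCA4* knockdown, and 23.0% lower and 23.8% higher in *SMARCA1* knockdown. Of 85 tested cytosolic ribosomal protein genes, 81 were lower and 1 higher in *SMARCA4* knockdown (median -1.17), and 72 were lower and 4 higher in *SMARCA1* knockdown (median -0.74). Termination and recycling factors fell as well, with 6 of 7 lower and 1 higher in *SMARCA4* knockdown (median -0.31) and 4 lower and 1 higher in *SMARCA1* knockdown (median -0.56). In that list the recycling ATPase *ABCE1* fell by 1.03 ± 0.11 (adjusted p = 8.4e-05) and 0.70 ± 0.11 (adjusted p = 0.00086), and the ribosome rescue factor *PELO* rose by 0.39 ± 0.13 (adjusted p = 0.038) and 0.49 ± 0.13 (adjusted p = 0.013). The calls of *PELO* were lost without either control (with *SMARCA4* depleted, adjusted p = 0.12 and 0.14; with *SMARCA1* depleted, 0.072 and 0.08), and in *SMARCA4* knockdown also without *SMARCA4* siRNA A replicate 1 (0.073), *SMARCA4* siRNA B replicate 1 (0.06) or *SMARCA1* siRNA C replicate 2 (0.052). Among 9 tested mitochondrial translation factors, 5 were lower in each knockdown and none higher, with medians of -0.50 and -0.30.

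Regulators of the factors were mixed, and in lists this short some counts lay near the same shares of all genes. Among the 6 eIF2 kinases and phosphatase subunits, none was lower, and 3 were higher in *SMARCA4* knockdown and 2 in *SMARCA1* knockdown. *EIF2AK2*, the double-stranded RNA-activated kinase and an interferon-induced gene, rose by 1.83 ± 0.20 (adjusted p = 8.2e-05) and 1.36 ± 0.19 (adjusted p = 0.00044). *PPP1R15A*, the stress-induced phosphatase subunit that reverses eIF2 phosphorylation, rose by 1.96 ± 0.14 (adjusted p = 1.0e-05) and 1.78 ± 0.14 (adjusted p = 2.7e-05). Of 9 tested regulators of eIF4E and eIF4A, 4 were lower and 1 higher in *SMARCA4* knockdown, and 3 were lower and 1 higher in *SMARCA1* knockdown. The poly(A)-binding protein *PABPC1* fell by 1.61 ± 0.09 (adjusted p = 2.9e-06) and 1.09 ± 0.09 (adjusted p = 3.4e-05), and the eIF4E-binding protein *EIF4EBP2* fell by 1.30 ± 0.15 (adjusted p = 0.00012) and 1.06 ± 0.15 (adjusted p = 0.00046). The eIF4E kinase *MKNK1* rose by 0.90 ± 0.11 (adjusted p = 0.00014) and 0.46 ± 0.11 (adjusted p = 0.0056, 0.055 without control replicate 1). Of 10 eIF5 mimics and enzymes of hypusine and diphthamide, the modified residues of eIF5A and eEF2, 5 were lower in *SMARCA4* knockdown and 4 in *SMARCA1* knockdown, and none was higher. *DPH5*, a diphthamide enzyme, fell by 1.18 ± 0.11 (adjusted p = 3.3e-05) and 0.70 ± 0.11 (adjusted p = 0.00074). Of 5 tested methyltransferases of eEF1A, 3 were lower in *SMARCA4* knockdown and 2 in *SMARCA1* knockdown, and none was higher.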

How the data were processed

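RNA was sequenced from polyadenylated, strand-specific libraries of VCaP cells, 10 in all. The authors used HISAT2 to align reads (GRCh38) and featureCounts to assign them to GENCODE genes, and the deposited values are raw counts without normalization. Per the labels, versions were HISAT2 2.1.0 and featureCounts 1.5.2. How reads in exons shared by several genes were treated is not given in the sources used here. Groups and replicate numbers came from the labels, which do not say whether replicates were separate cultures, so p-values measure the spread between these libraries. Libraries held 23898545 to 34667965 counts, at which 3 counts were 0.0865 to 0.126 CPM.

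In R 4.3.3, genes passing filterByExpr (minimum count 10, minimum total 15) were scaled with TMM, and 5 groups were modelled with the quasi-likelihood functions of edgeR 4.0.16. A knockdown is the average of its 2 siRNA groups. Benjamini-Hochberg adjustment ran over 16899 genes, and an adjusted p below 0.05 is a call. Standard errors are the absolute log2 fold change over the square root of F. The fit was checked on simulated counts. Levels in every library were given for members called with an absolute log2 fold change of at least 0.5, for members called in opposite directions, and for 9 chosen factors (*EIF2S1*, *EIF4E*, *EIF4A1*, *EIF4A2*, *EIF4G1*, *EIF5A*, *EEF1A1*, *EEF1A2*, EEF2). *EIF2B4* and the list genes printed with values were named for illustration after these were seen. Members and lists were chosen with earlier results of these data known. The pyrimidine search at start sites was added after the values were seen. Alternatives were DESeq2 1.42.0, other normalizations and filters, a replicate block, subsets of libraries, a minimum fold change and each library left out.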

Additional observations from a re-analysis of the deposited data

Results flagged for a closer look

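For 4 members the effects of the *SMARCA4* siRNAs against the same control differed by a direct test (edgeR, adjusted p below 0.05), where 6.20% of all genes differed, so the members' share of 7.27% was near the background. All 4 calls were lost without *SMARCA4* siRNA A replicate 2 or either library of *SMARCA4* siRNA B. The log2 difference of siRNA B minus siRNA A was -0.77 for *EEF1B2*, -0.66 for *EEF1A1*, -0.46 for *EIF1AX* and -0.40 for *EIF2A*, and each gene was below both controls in all 4 *SMARCA4* libraries. *EEF1B2* measured 108 and 137 CPM under siRNA A against 72.9 and 71.2 CPM under siRNA B. *EIF1AX* was at 157 and 177 CPM against 123 and 119.6 CPM, and *EIF2A* at 90.5 and 97.6 CPM against 71.8 and 71 CPM. No condition has more than 2 libraries, so none could be searched for libraries far from the others.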

How the results depend on the processing

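Across the alternatives the members called in *SMARCA4* knockdown against control numbered 23 to 41 (33 as reported), and 20 to 42 with one library left out, lowest without control replicate 1 (20) and replicate 2 (21). In *SMARCA1* knockdown they numbered 16 to 28 (25 as reported), with 16 at a minimum fold change of 1.2, and 14 to 34 with one library left out, lowest without control replicate 1 (14). Between the knockdowns they numbered 23 to 26 (25 as reported), and 13 to 30 with one library left out, namely 13 and 16 without replicate 1 and 2 of *SMARCA1* siRNA C and 14 without *SMARCA4* siRNA B replicate 2. Between the *SMARCA4* siRNAs the 4 calls became 0 to 11 with one library left out, with 0 without *SMARCA4* siRNA A replicate 2 or either siRNA B library, 1 without either control or *SMARCA1* siRNA C replicate 1, 2 without *SMARCA1* siRNA C replicate 2, and 10 and 11 without replicate 1 and 2 of *SMARCA1* siRNA A. Between the *SMARCA1* siRNAs 0 became 2 without the filter on low counts and 0 to 8 with one library left out, 8 without *SMARCA1* siRNA A replicate 2. The number of all genes called changed too. In *SMARCA4* knockdown it was 7616 as reported, 5501 at a minimum fold change of 1.2 and 8423 without the *SMARCA1* libraries. With one library left out, the fits with the lowest member counts against control or between the knockdowns also called fewer of all genes. Those with the highest member counts called more of all genes. Fewer libraries change the estimate of spread and the degrees of freedom, and the cause beyond that was not tested. A fit that leaves one library in a condition takes its spread from the others. Normalization moved the median of all genes by at most 0.03.

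With the replicate number as a block, 36 members were called in *SMARCA4* knockdown, 27 in *SMARCA1* knockdown and 25 between them. The block turned *EEF1A2* in *SMARCA4* knockdown into a call (-0.38, adjusted p = 0.04). The labels do not say that a number marks a shared batch, and correlations of the deviations of same-numbered libraries ranged from -0.103 to 0.362 over 10 pairs of groups, with 3 above 0.1 (*SMARCA4* siRNA A with siRNA B, and each of these with *SMARCA1* siRNA A), so the numbers were not treated as a pairing. Of the 69 tests of members named by the rule, 16 of 23 calls in *SMARCA4* knockdown, 13 of 20 in *SMARCA1* knockdown and 11 of 17 between them were kept with each library left out. Of 1381 values under alternatives, 1276 kept direction and side of the threshold, 79 lost the call, 14 gained it and 12 changed sign. The sign changes were of values near 0. *EIF4G1* in *SMARCA4* knockdown (-0.04 to 0.06 with one library left out) turned to 0.06 without control replicate 2, 0.03 without *SMARCA4* siRNA A replicate 2, 0.04 without *SMARCA4* siRNA B replicate 2, 0.01 without *SMARCA1* siRNA A replicate 2 and 0.05 with siRNA A alone. *EIF5A* in *SMARCA1* knockdown (-0.07 to 0.10 with one library left out) turned to -0.02 with upper-quartile or total-count scaling, -0.00 with the replicate block, -0.01 without control replicate 1 or *SMARCA1* siRNA C replicate 1, -0.07 without *SMARCA1* siRNA A replicate 1 and -0.09 with siRNA C alone. Without *EEF1A1* the mean summed share was 1.63% in the controls, 1.18% in *SMARCA4* knockdown and 1.32% in *SMARCA1* knockdown, in place of 2.95%, 1.70% and 1.88%.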

Other observations

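Annotated pseudogenes of EIF and EEF genes were left out of the members, and those of *EEF1A1*, taken as a sum, moved like *EEF1A1*. The summed level of 39 *EEF1A1* pseudogenes was 326 and 312 CPM in the controls, 79 to 165 CPM in *SMARCA4* knockdown and 94.8 to 143 CPM in *SMARCA1* knockdown. Relative to *EEF1A1* their summed counts were 2.54% and 2.34% in the controls and between 1.86% and 2.32% in the 8 knockdown libraries. Whether these are reads of *EEF1A1* placed on its copies was not tested.

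The measured levels of *EIF4A1* and *EEF1G* are far from what textbook biology gives for these abundant mRNAs. The readthrough gene *RP11-864I4.1*, which covers *EEF1G*, had 10 counts or fewer in each library, and *SENP3-EIF4A1* had 3 or fewer, so few counts are listed under the readthrough genes either. Of the 58 members, 7 have less than 90% of their exon bases to themselves on their strand, and 6.79% of all tested genes do.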
